A study of Homo sapiens with 18 samples.

Results

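The dual specificity MAP kinase phosphatases examined here are 10 genes, chosen by name with earlier results of these data known. These genes are DUSP1, DUSP2, DUSP4, DUSP5, DUSP6, DUSP7, DUSP8, DUSP10, DUSP16 and DUSP22. They are 10 of 23250 gene symbols measured by RNA-seq in SUDHL6, Farage and SUDHL4, which are established human diffuse large B cell lymphoma lines. Each line was exposed for 12 h to 10 µM of 79-6.1085, an inhibitor of the transcriptional repressor BCL6, or to its vehicle DMSO. There were 3 libraries in each of the 6 groups, 18 in all, and no other agent or genetic change is given in the labels for any of them. Whether the 3 libraries of a group are separate cultures is not stated, and every p-value refers to the spread between libraries, which may be technical. Levels are in counts per 1000000 (CPM). Each line is a single isolate, and differences between lines cannot be told apart from other properties of that isolate.

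MAP kinases are switched on by phosphorylation of a threonine and a neighbouring tyrosine in their activation loop, and dual specificity phosphatases remove both phosphates. Most of their genes are themselves transcribed in response to MAP kinase signalling, so the phosphatases form a negative feedback on the kinases. DUSP1, DUSP2, DUSP4 and DUSP5 are nuclear enzymes with rapidly inducible transcripts, and DUSP5 acts on ERK alone. DUSP6 and DUSP7 are cytoplasmic and prefer ERK, DUSP8, DUSP10 and DUSP16 act mainly on JNK and p38, and DUSP22 is an atypical, small family member without the kinase-docking domain. DUSP2 was first described in activated lymphocytes, and BCL6 represses activation and DNA damage response genes in germinal centre B cells.

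The 250 bases before the transcription start of 4 members are shown. DUSP1 and DUSP8 were taken because they rose in all 3 lines and held the same 8-base motif. DUSP2 and DUSP7 were the members with lower means in all 3 lines. DUSP10 also rose in all 3 lines, but its promoters held no searched motif and are not shown. DUSP5 rose in all 3 lines too and had no promoter entry. The sequences come from RefSeq on build GRCh38.p14, all 4 on the minus strand: DUSP1 at chr5:172771196-172771445, DUSP8 at chr11:1572272-1572521, DUSP2 at chr2:96145441-96145690 and DUSP7 at chr3:52056572-52056821. Capitals mark matches to the searched motifs, and in DUSP1 an antioxidant response element core (TGACNNNGC, read on the other strand) runs into an E-box (CACGTG).
DUSP1: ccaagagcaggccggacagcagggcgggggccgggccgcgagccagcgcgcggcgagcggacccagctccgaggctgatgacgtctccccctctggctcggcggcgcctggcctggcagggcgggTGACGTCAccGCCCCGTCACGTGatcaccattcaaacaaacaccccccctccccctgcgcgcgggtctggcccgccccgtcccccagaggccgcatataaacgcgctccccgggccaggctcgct
DUSP8: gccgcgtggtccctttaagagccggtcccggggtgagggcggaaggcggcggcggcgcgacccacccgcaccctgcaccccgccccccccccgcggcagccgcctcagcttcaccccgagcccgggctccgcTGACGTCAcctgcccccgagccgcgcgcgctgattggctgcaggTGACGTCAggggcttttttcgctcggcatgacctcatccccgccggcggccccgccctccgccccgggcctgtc
DUSP2: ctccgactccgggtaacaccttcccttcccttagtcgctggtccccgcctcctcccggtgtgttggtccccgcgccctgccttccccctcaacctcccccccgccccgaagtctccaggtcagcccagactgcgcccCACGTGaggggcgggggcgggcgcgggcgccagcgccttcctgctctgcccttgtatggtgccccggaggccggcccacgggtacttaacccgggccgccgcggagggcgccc
DUSP7: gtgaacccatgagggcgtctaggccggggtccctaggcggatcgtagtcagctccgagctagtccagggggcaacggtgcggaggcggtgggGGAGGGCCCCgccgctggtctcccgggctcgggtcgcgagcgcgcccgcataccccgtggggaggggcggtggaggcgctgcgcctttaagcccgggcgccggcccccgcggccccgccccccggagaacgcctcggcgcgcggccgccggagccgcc
The cAMP response element TGACGTCA, searched on both strands, occurred 1 time before DUSP1 and 2 times before DUSP8. It was in 2 of the 9 promoters listed for the 8 members that the table holds, against 1.65% of all 35116 promoters. The E-box was in DUSP1 and DUSP2 (6.34% of all promoters), the antioxidant response element core in DUSP1 and DUSP22 (10.91%) and the NF-kB site in DUSP7 (9.96%). AP-1 (TGANTCA, 6.57% of all promoters), the heat shock element core (GAANNTTC, 5.78%), the BCL6 motif (TTCCTAGAA, 0.31%), ETS (CCGGAAG, 8.52%) and the serum response element (1.16%) matched no member in this window. These are matches of letters and describe no binding. DUSP4 and DUSP5 had no entry among these promoters and were not searched. For DUSP7 and DUSP8 the RefSeq start did not lie in a GENCODE 29 transcript.

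Reads assigned to listed genes amounted to 16.9 to 25.5 M in 16 libraries and to 6.29 and 7.36 M in the inhibitor-treated and DMSO libraries numbered 3 of SUDHL6. All 7 B cell markers stood at 1 CPM or more in every group. Their summed level was lower after inhibitor: 2100 to 3170 CPM against 5250 to 5530 CPM with DMSO in SUDHL6, 2080 to 2200 against 3600 to 3760 in Farage, and 4270 to 4370 against 6240 to 6690 in SUDHL4. The part of this in the phosphatase results was not tested. The fall was uneven between markers: in SUDHL6 PAX5 averaged 39.9 CPM after inhibitor against 178 CPM with DMSO, and EBF1 17.2 against 18.4 CPM. Levels are shares of each bulk library. Whether fewer cells carried these transcripts or each cell carried a smaller share of them cannot be told apart. Summed markers of T and NK cells, myeloid cells, and fibroblasts and epithelium reached at most 7.45 CPM in any library. The SUDHL4 DMSO library numbered 3 stood part way towards the inhibitor libraries for several phosphatases: on the log2 scale it covered 44.8% of the distance for DUSP5, 26.4% for DUSP2, 25.4% for DUSP1 and 20.3% for DUSP10, measured from the other 2 DMSO libraries. Values without it are given where they matter.

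The 10 phosphatases did not move as a block. DUSP1, DUSP5, DUSP8 and DUSP10 rose after the inhibitor in all 3 lines, DUSP7 fell in all 3, and the other 5 passed the test in some of the lines but not in others. Differences are given as inhibitor minus DMSO of log2(CPM + 1), with p-values from limma adjusted by the Benjamini-Hochberg method over 12769 genes and a threshold of 0.05. This scale understates the change of low genes. In SUDHL6, 4 of 10 members were called higher and 2 lower, against 26.8% and 41.3% of all tested genes. In Farage 7 were called higher and 2 lower, against 25.4% and 46.5% of all genes, and in SUDHL4 6 and 3, against 24.3% and 46.2%. In the 3 lines' mean 6 members were called higher and 4 lower, with a background of 30.1% and 53.8%. The median change of the 10 members in that mean was 0.25, against -0.24 over all tested genes. The members were not chosen independently of these data, so such contrasts only describe the list. A rescaling by median-of-ratios factors brought the median of all genes to -0.05 and the share of all calls that were higher to 47.1%, against 35.8% on the deposited scale. It moved members as well: the median of DUSP8, DUSP10 and DUSP16 in the mean of the lines went from 1.04 to 1.24.

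All 10 members passed the filter of 1 CPM in at least 3 libraries, but not on equal terms. DUSP6 passed only through the 3 SUDHL4 DMSO libraries and DUSP4 only through the 6 Farage libraries, so a difference there is built into their passing. DUSP8 reached 1 CPM in 12 libraries and in no Farage or SUDHL4 DMSO library. The other 7 reached it in 16 to 18 libraries.

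**Figure D1:**
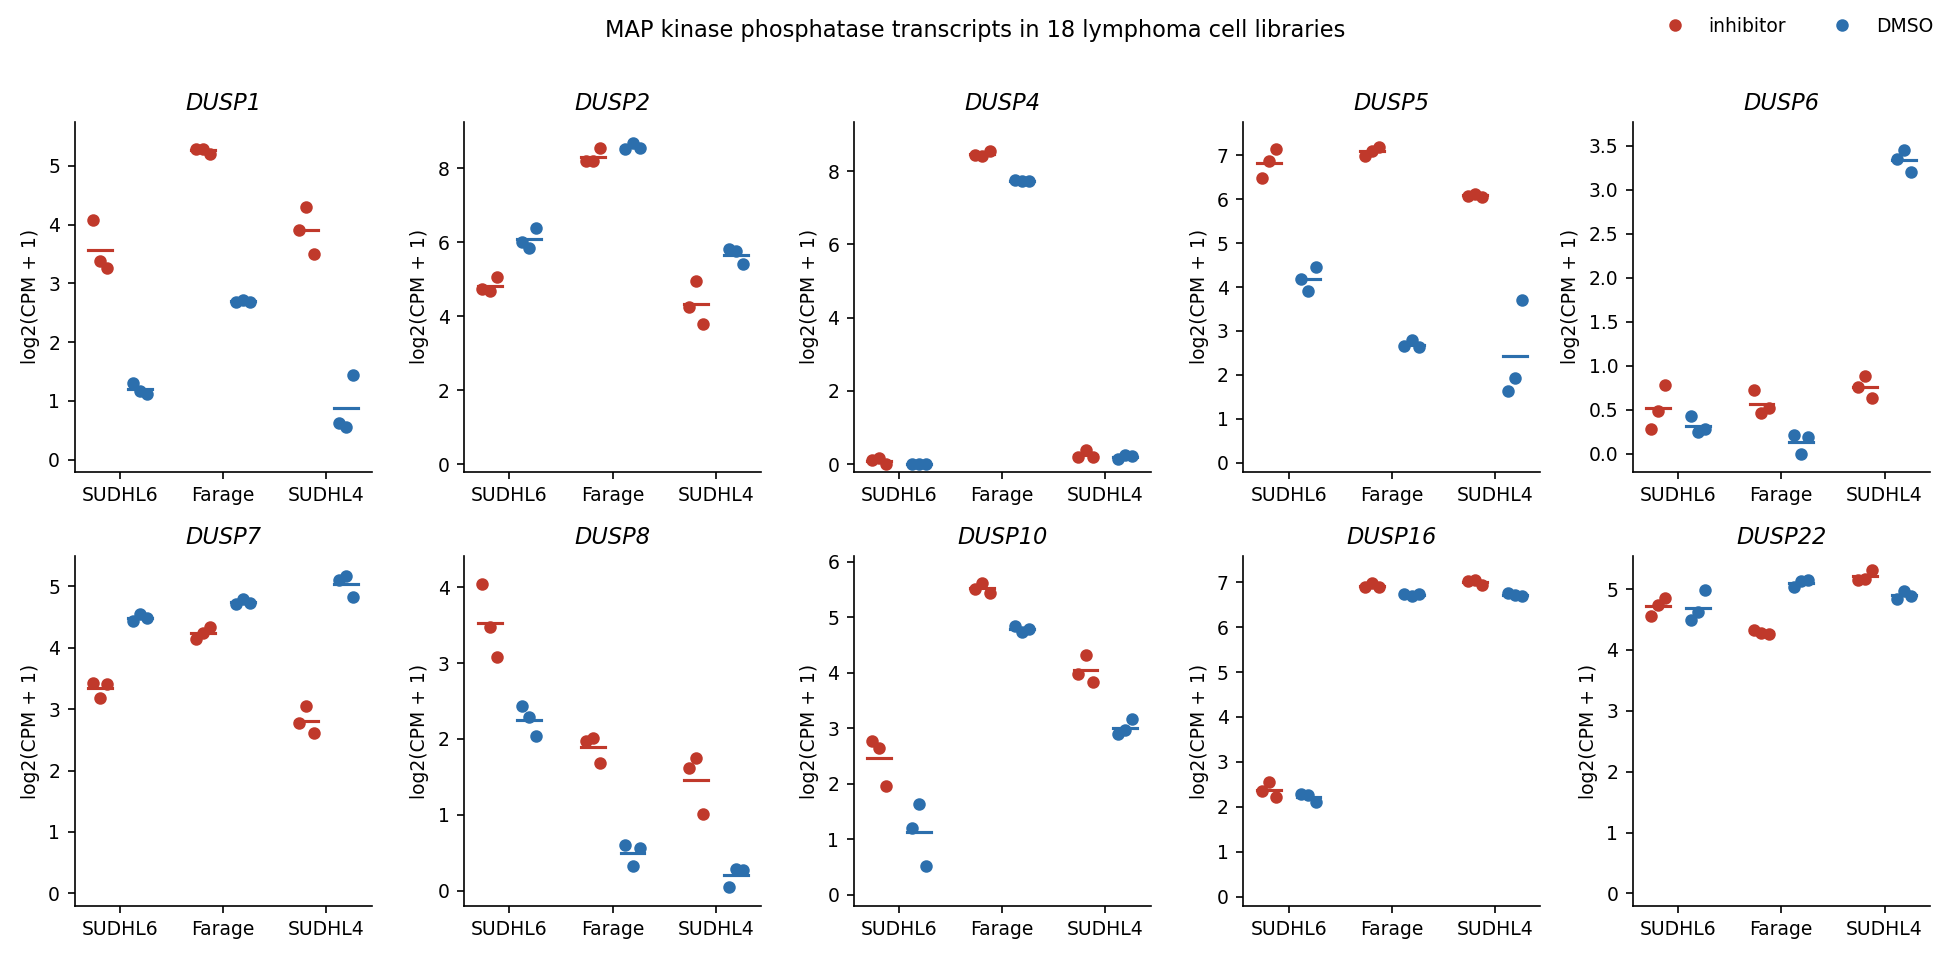
Level of each phosphatase as log2(CPM + 1) in every library, by line, with inhibitor libraries (red) left of DMSO libraries (blue). Points are libraries and bars are means of 3. The red and blue points do not overlap in any line for DUSP1, DUSP5, DUSP7, DUSP8 and DUSP10, and DUSP4 is far above 0 only in Farage.

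DUSP5, the nuclear ERK phosphatase, had the largest rise of the 10 members in each line on the log2(CPM + 1) scale, although the ratio of means was larger for DUSP1 in SUDHL6 (8.69) and SUDHL4 (15.8) and, marginally, for DUSP8 in SUDHL4 (11.83, against 11.79 for DUSP5). In SUDHL6 it stood at 88.6, 116 and 139 CPM after inhibitor, against 17.2, 13.97 and 20.9 CPM with DMSO. In Farage it stood at 126, 137 and 145 CPM after inhibitor and at 5.27, 5.89 and 5.17 CPM with DMSO. In SUDHL4 the inhibitor libraries held 66.8, 68.8 and 65.1 CPM and the DMSO libraries 2.12, 2.82 and 12.1 CPM. The groups did not overlap in any line, and every inhibitor library of any line was above every DMSO library of any line. The ratio of means was 6.60 in SUDHL6, 25.0 in Farage and 11.8 in SUDHL4. The SUDHL4 ratio, and so its order against that of DUSP8, depends on the DMSO library numbered 3. That library held 12.1 CPM of DUSP5, against 2.12 and 2.82 CPM in the others. On the log2 scale DUSP5 rose by 2.65 ± 0.35 (SE; adjusted p = 5.46e-06, limma) in SUDHL6, 4.41 ± 0.35 (1.53e-08) in Farage and 3.66 ± 0.35 (1.13e-07) in SUDHL4. Without the SUDHL4 DMSO library numbered 3 the SUDHL4 rise was 4.30 (3.89e-11). The rise in SUDHL6 was 1.76 ± 0.50 smaller than that in Farage (adjusted p = 0.011, limma). The difference from SUDHL6 to SUDHL4 was -1.01 (adjusted p = 0.13), and -1.65 (adjusted p = 7.53e-05) without that library.

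DUSP1, which removes phosphates from p38, JNK and ERK in the nucleus, rose in each line. It held 15.8, 9.37 and 8.58 CPM in inhibitor-treated SUDHL6, against 1.46, 1.25 and 1.18 CPM in DMSO-treated SUDHL6. Farage held 38.02, 38.04 and 35.9 CPM after inhibitor, against 5.40, 5.60 and 5.42 CPM with DMSO. SUDHL4 held 14.02, 18.8 and 10.3 CPM after inhibitor, against 0.547, 0.475 and 1.71 CPM with DMSO. No inhibitor library overlapped the DMSO libraries of its line, and Farage was highest under both conditions. The log2 rise was 2.37 ± 0.24 in SUDHL6 (SE; adjusted p = 2.38e-07, limma), 2.56 ± 0.24 in Farage (7.3e-08) and 3.03 ± 0.24 in SUDHL4 (1.1e-08). None of the 3 differences between lines passed the test. SUDHL6 minus SUDHL4 was -0.66 (adjusted p = 0.142), with -0.94 (0.0241) without the SUDHL4 DMSO library numbered 3 and -0.91 (0.025) without the SUDHL6 inhibitor library numbered 1. SUDHL4 minus Farage was 0.46 (adjusted p = 0.301), but 1.29 (0.0468) with edgeR and 1.26 (0.0277) with DESeq2 on recovered reads.

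DUSP2, the phosphatase of activated lymphocytes, moved the other way. SUDHL6 held 25.8, 24.6 and 32.7 CPM after inhibitor, against 63.4, 56.8 and 82.1 CPM with DMSO. SUDHL4 held 18.04, 30.04 and 12.7 CPM after inhibitor, against 55.4, 53.4 and 41.4 CPM with DMSO. In both lines every inhibitor library was below every DMSO library. In Farage, where DUSP2 was much more abundant, 295, 296 and 372 CPM after inhibitor overlapped the 369, 411 and 377 CPM with DMSO. DUSP2 fell by 1.25 ± 0.22 on the log2 scale in SUDHL6 (SE; adjusted p = 0.000104, limma) and by 1.33 ± 0.22 in SUDHL4 (4.64e-05). Its change in Farage was -0.27 ± 0.22 (adjusted p = 0.284), and adjusted p was 0.0234 when Farage was fitted alone. The response in SUDHL6 was lower than that in Farage by 0.98 (adjusted p = 0.0224), which did not pass without the SUDHL6 DMSO library numbered 3 (-0.83, 0.0558) or the Farage inhibitor library numbered 3 (-0.87, 0.0599). The response in SUDHL4 was lower than that in Farage by 1.06 (adjusted p = 0.0137).

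DUSP4, another nuclear phosphatase, was a Farage transcript. It held 349, 344 and 374 CPM in inhibitor-treated Farage, against 215, 212 and 212 CPM in DMSO-treated Farage. These groups did not overlap, and the rise was 0.74 ± 0.09 on the log2 scale (SE; adjusted p = 1.9e-06, limma). In SUDHL6 the recovered reads were 2, 3 and 0 after inhibitor and 0 in all 3 DMSO libraries. In SUDHL4 they were 4, 9 and 3 after inhibitor and 3, 6 and 5 with DMSO. DUSP4 was therefore within a few reads of 0 in both lines, and its changes of 0.10 in SUDHL6 (adjusted p = 0.347) and 0.05 in SUDHL4 (0.623) did not pass the test on this scale. On recovered reads the SUDHL6 change was called by edgeR (4.31, adjusted p = 0.00656) and DESeq2 (3.41, 0.0179). Both fitted values rest on 5 reads after inhibitor against 0 with DMSO, and the edgeR value depends on its prior count. Its responses in SUDHL6 and SUDHL4 were lower than in Farage by 0.64 (adjusted p = 0.00105) and 0.68 (0.000541). Both differences rest on the pseudocount: with 0.25 in place of 1 they were -0.39 (0.227) and -0.60 (0.0647), and edgeR gave 3.32 (0.0685) and -0.27 (0.753).

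Of the 4 nuclear inducible members, 2 were called higher and 1 lower in SUDHL6 (26.8% and 41.3% of all genes), with a median change of 1.24 against -0.13 over all genes. In Farage 3 were called higher and none of the 4 lower, against 25.4% and 46.5% (median 1.65, all genes -0.22), and in SUDHL4 2 were higher and 1 lower, against 24.3% and 46.2% (median 1.54, all genes -0.21). The medians of 4 values summarise a class in which DUSP2 stood apart in direction from DUSP1 and DUSP5. In each line the median lies midway between DUSP1 and DUSP4. In SUDHL6 and SUDHL4 DUSP4 was within a few reads of 0, so the medians there describe no member well.

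**Figure D2:**
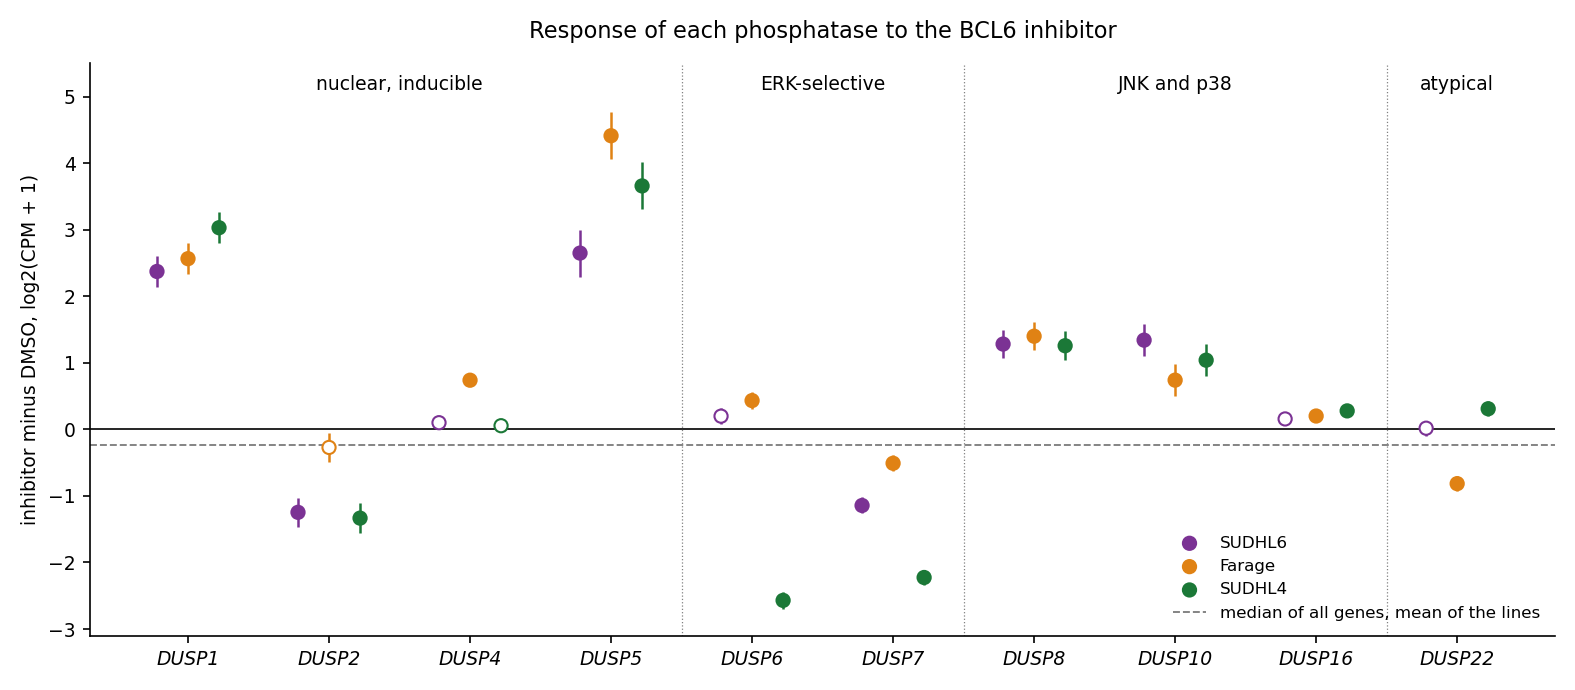
Inhibitor minus DMSO in log2(CPM + 1) for each phosphatase in SUDHL6 (purple), Farage (orange) and SUDHL4 (green), with bars of 1 SE from limma. Filled points passed the adjusted p threshold of 0.05 and open points did not; the dashed line is the median of all genes in the mean of the lines, at -0.24. DUSP5 spans 2.65 to 4.41, and DUSP6 lies at -2.57 in SUDHL4.

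DUSP6, the cytoplasmic ERK phosphatase that is a common readout of ERK pathway output, was a SUDHL4 transcript. SUDHL4 held 0.701, 0.854 and 0.555 CPM after inhibitor, against 9.19, 9.94 and 8.21 CPM with DMSO. DUSP6 passed the filter only through these DMSO libraries, so a difference from them was built into its passing. Every inhibitor library was more than 1 log2 unit below every DMSO library, the ratio of DMSO to inhibitor means was 12.96, and DUSP6 fell by 2.57 ± 0.12 on the log2 scale (SE; adjusted p = 5.96e-11, limma). In SUDHL6 the recovered reads were 5, 9 and 6 after inhibitor and 9, 5 and 2 with DMSO, a change of 0.20 (adjusted p = 0.166), or 0.32 (0.0341) without the inhibitor library numbered 1. In Farage they were 20, 10 and 13 after inhibitor and 5, 0 and 4 with DMSO, and this rise of 0.43 ± 0.12 was called (adjusted p = 0.00485) at levels below 1 CPM. The SUDHL4 response was lower by 3.002 than that of Farage (adjusted p = 2.9e-09) and the SUDHL6 response 2.77 above that of SUDHL4 (1.93e-08). The change in the mean of the lines, -0.65 (adjusted p = 2.39e-07), was therefore the value of no line, and edgeR gave -0.06 (0.936) for it. An antisense gene, AC024909.2, overlaps DUSP6 in GENCODE 29, and the strand setting of the counting is not given in the sources used here, so reads of the pair cannot be told apart.

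DUSP7, the other cytoplasmic ERK phosphatase, fell in each line. Its means were 9.17 CPM in SUDHL6, 17.88 in Farage and 6.06 in SUDHL4 after inhibitor, against 21.4, 25.8 and 31.95 CPM with DMSO. SUDHL6 held 9.77, 8.08 and 9.66 CPM after inhibitor, against 20.6, 22.3 and 21.4 CPM with DMSO. Farage held 16.6, 17.8 and 19.3 CPM after inhibitor, against 25.3, 26.8 and 25.4 CPM with DMSO. SUDHL4 held 5.83, 7.26 and 5.09 CPM after inhibitor, against 33.5, 35.1 and 27.3 CPM with DMSO. The groups did not overlap in any line, and the spread within a group was small. DUSP7 fell by 1.14 ± 0.12 on the log2 scale in SUDHL6 (SE; adjusted p = 3.93e-07, limma), by 0.51 ± 0.12 in Farage (0.00115) and by 2.23 ± 0.12 in SUDHL4 (2.28e-10). The Farage fall did not pass with median-of-ratios scaling (-0.28, 0.0587) or with edgeR (-0.29, 0.0519). All 3 pairs of lines differed: SUDHL6 was below Farage by 0.63 (adjusted p = 0.00765), SUDHL4 below Farage by 1.72 (9.43e-07) and SUDHL6 above SUDHL4 by 1.08 (0.00015).

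The JNK and p38 phosphatases DUSP8, DUSP10 and DUSP16 had values above DMSO in every line. In SUDHL6, 2 of the 3 were called higher (class median 1.28), against 26.8% of all genes (median -0.13). All 3 were called higher in Farage (class median 0.74), against 25.4% of all genes (median -0.22), and in SUDHL4 (class median 1.04), against 24.3% (median -0.21). None of the 3 was called lower in any line, and none of their response differences between lines passed the test.

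DUSP8 held 15.5, 10.1 and 7.49 CPM in inhibitor-treated SUDHL6, against 4.39, 3.89 and 3.11 CPM with DMSO. Farage held 2.93, 3.05 and 2.21 CPM after inhibitor, against 0.520, 0.248 and 0.470 CPM with DMSO. SUDHL4 held 2.07, 2.35 and 1.02 CPM after inhibitor, against 0.0365, 0.222 and 0.201 CPM with DMSO. The groups did not overlap in any line. The log2 rise was 1.28 ± 0.21 in SUDHL6 (SE; adjusted p = 5.71e-05, limma), 1.40 ± 0.21 in Farage (2.05e-05) and 1.26 ± 0.21 in SUDHL4 (5.99e-05). These near-equal values came with unequal ratios of means, 2.90 in SUDHL6, 6.62 in Farage and 11.8 in SUDHL4, since the pseudocount of 1 exceeds the DMSO level in Farage and SUDHL4. SUDHL6 minus SUDHL4 was 0.02 (adjusted p = 0.965), but -2.08 (0.0207) with edgeR and -2.12 (0.00341) with DESeq2.

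DUSP10 held 5.85, 5.24 and 2.90 CPM in inhibitor-treated SUDHL6, against 1.31, 2.11 and 0.428 CPM with DMSO. Farage held 44.7, 48.1 and 42.3 CPM after inhibitor, against 27.6, 25.5 and 26.6 CPM with DMSO. SUDHL4 held 14.8, 19.0 and 13.3 CPM after inhibitor, against 6.42, 6.87 and 7.94 CPM with DMSO. Every inhibitor library was above every DMSO library of its line, and in SUDHL6 the libraries numbered 3 were the lowest of both groups. DUSP10 rose by 1.34 ± 0.24 in SUDHL6 (SE; adjusted p = 9.38e-05, limma), 0.74 ± 0.24 in Farage (0.0101) and 1.04 ± 0.24 in SUDHL4 (0.000853) on the log2 scale. SUDHL6 minus Farage was 0.60 (adjusted p = 0.172). With the replicate block, which follows the pairing of numbers seen in SUDHL6, the same difference had an adjusted p of 0.0326. It also passed without the SUDHL6 DMSO library numbered 2 (0.86, 0.0396), without the SUDHL6 inhibitor library numbered 3 (0.85, 0.0346) and with DESeq2 (0.94, 0.0268). Over single libraries left out the difference ran from 0.298 to 0.861, with adjusted p from 0.0346 to 0.43 (limma). The SUDHL6 DMSO library numbered 3 held only 4 recovered reads of DUSP10.

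DUSP16 changed least of these 3. Farage held 117 to 126 CPM after inhibitor, against 102 to 106 CPM with DMSO. SUDHL4 held 121 to 132 CPM after inhibitor, against 103 to 107 CPM with DMSO. The groups did not overlap in either of these lines. SUDHL6 held 3.62 to 4.89 CPM after inhibitor, against 3.32 to 3.89 CPM with DMSO, and these groups overlapped. The rise was 0.28 ± 0.08 in SUDHL4 (SE; adjusted p = 0.00698, limma) and 0.20 ± 0.08 in Farage (0.0413), against all-gene medians of -0.21 and -0.22. The Farage call is marginal: adjusted p was 0.0599 with a pseudocount of 0.25, between 0.0567 and 0.14 when any of the 6 Farage libraries was left out, and 0.052, 0.0512 and 0.0535 without the SUDHL4 DMSO libraries numbered 1 and 2 and the SUDHL4 inhibitor library numbered 1. The SUDHL6 change of 0.16 (adjusted p = 0.108) passed without the SUDHL6 inhibitor library numbered 3 (0.24, 0.0147) and with median-of-ratios scaling (0.29, 0.00348), edgeR (0.42, 0.00266) and DESeq2 (0.41, 0.0106).

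DUSP22, whose atypical phosphatase acts in the JNK pathway and in T cell receptor signalling, changed in opposite directions between lines. Farage held 19.1, 18.4 and 18.2 CPM after inhibitor, against 31.8, 34.01 and 34.6 CPM with DMSO. SUDHL4 held 34.5, 34.9 and 38.7 CPM after inhibitor, against 27.7, 30.2 and 28.7 CPM with DMSO. In neither line did the groups overlap. SUDHL6 held 22.5, 25.6 and 27.9 CPM after inhibitor and 21.4, 23.7 and 30.5 CPM with DMSO, which overlapped. DUSP22 fell by 0.82 ± 0.11 on the log2 scale in Farage (SE; adjusted p = 5.07e-06, limma) and rose by 0.31 ± 0.11 in SUDHL4 (0.0189), with 0.02 in SUDHL6 (0.913). The SUDHL4 rise did not pass without the DMSO library numbered 1 (0.28, 0.0626) or the inhibitor library numbered 3 (0.26, 0.0775). The responses of SUDHL6 and SUDHL4 were above that of Farage by 0.83 (adjusted p = 0.000567) and 1.13 (3.19e-05). SUDHL6 minus SUDHL4 was -0.29 (adjusted p = 0.158), but passed with edgeR (-0.43, 0.0462), with DESeq2 (-0.43, 0.0332) and without the SUDHL6 DMSO library numbered 1 (-0.40, 0.0495). The change in the mean of the lines, -0.16 (adjusted p = 0.025), turned to 0.07 (0.321) with median-of-ratios scaling.

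Over the 10 members the response differed in 5 between SUDHL6 and Farage, in 5 between SUDHL4 and Farage and in 2 between SUDHL6 and SUDHL4. Over all tested genes these differences were called in 36.8%, 37.4% and 35.0%. The count between SUDHL6 and SUDHL4 was 4 without the SUDHL4 DMSO library numbered 3, which added DUSP1 and DUSP5. The 3 differences share lines with each other and are not independent.

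With DMSO the levels of the phosphatases differed between lines about as often as those of all genes. Under DMSO, 8 of the 10 members differed between Farage and SUDHL6 (71.3% of all genes did), 6 between Farage and SUDHL4 (67.1%) and 6 between SUDHL6 and SUDHL4 (68.6%). These counts include DUSP4 and DUSP6, for which the filter built in differences between lines. Levels between genes are compared as mean CPM per kilobase of the longest RefSeq-matched transcript. With DMSO, DUSP2 was the most abundant member in every line, at 228.5 CPM per kb in Farage, 39.95 in SUDHL6 and 29.65 in SUDHL4. DUSP4 followed in Farage at 38.4 and then DUSP16 at 19.9. In SUDHL6, DUSP22 followed at 8.14 CPM per kb, then DUSP5 at 6.79 and DUSP7 at 6.41. In SUDHL4 DUSP16 followed at 19.9 CPM per kb, then DUSP7 at 9.57 and DUSP22 at 9.31. After the inhibitor DUSP5 was first in SUDHL6 and, narrowly, in SUDHL4 (26.2 CPM per kb, against 24.2 for DUSP16). In Farage it came after DUSP2 and DUSP4. The SUDHL4 order depends on the transcript lengths used: without them DUSP16 (127 CPM) was above DUSP5 (66.9 CPM).

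Farage stood highest under DMSO for DUSP1, DUSP2, DUSP4 and DUSP10, and each of these exceeded both other lines in the test. For DUSP4 this was built in, since it passed the filter only through Farage. DUSP4 averaged 213 CPM in Farage, at least 4380-fold higher than in SUDHL6, where no read was recovered (3 reads over the group correspond to 0.0486 CPM). DUSP2 was 2.51 ± 0.22 log2 units higher in Farage than in SUDHL6 (SE; adjusted p = 2.74e-08, limma) and 2.93 ± 0.22 higher than in SUDHL4 (3.71e-09). DUSP10 was 3.66 ± 0.24 higher in Farage than in SUDHL6 (4.23e-10) and 1.89 ± 0.24 lower in SUDHL6 than in SUDHL4 (2.34e-06). SUDHL6 stood highest for DUSP5 and DUSP8. DUSP5 was lower in Farage than in SUDHL6, with a difference of -1.495 ± 0.35 (adjusted p = 0.00121, limma), and Farage and SUDHL4 did not differ beyond their spread (0.26, 0.537), although without the SUDHL4 DMSO library numbered 3 Farage was 0.90 higher (0.000271). SUDHL4 stood highest for DUSP6, 3.02 ± 0.12 log2 units above SUDHL6 (adjusted p = 1.73e-12, limma, with a SUDHL6 minus SUDHL4 value of -3.02). This was built in as well, since DUSP6 passed the filter only through the SUDHL4 DMSO libraries. DUSP16 was 4.499 ± 0.08 higher in Farage than in SUDHL6 (2.24e-17), while Farage and SUDHL4 differed by -0.01 (0.952). DUSP7 and DUSP22 had the narrowest ranges of DMSO means relative to their level, 21.4 to 31.95 CPM for DUSP7 and 25.2 to 33.5 CPM for DUSP22.

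Several neighbours in the order of DMSO levels were not separated. DUSP1 in SUDHL6 and SUDHL4 differed by 0.32 (adjusted p = 0.241, limma), or by 0.60 (0.0263) without the SUDHL4 DMSO library numbered 3. DUSP2 in SUDHL6 and SUDHL4 differed by 0.42 (0.106), which passed with the replicate block (0.0172) and without the SUDHL4 inhibitor library numbered 2 (0.0329). DUSP8 in Farage and SUDHL4 differed by 0.29 (0.241), but by 0.73 (0.0425) with a pseudocount of 0.25 and by 1.39 (0.0192) with DESeq2. DUSP4 in SUDHL6 and SUDHL4 differed by -0.21 (0.0519), with no read in SUDHL6. That difference passed with a pseudocount of 0.25 (-0.69, 0.00182), with edgeR (-4.98, 0.000174) and DESeq2 (-4.10, 0.00171), when only these lines were fitted (0.0184), at a mean of at least 5 CPM (0.0387), and without any 1 of the SUDHL6 inhibitor libraries or the SUDHL4 inhibitor library numbered 2 (adjusted p from 0.0413 to 0.0447). DUSP7 in Farage and SUDHL6 differed by 0.26 (0.0622), which passed with the block (0.0331), with median-of-ratios scaling (0.36, 0.017), with edgeR (0.36, 0.021) and DESeq2 (0.37, 0.00793), when only these lines were fitted (0.034), and without the SUDHL4 DMSO library numbered 3 (0.047) or the SUDHL4 inhibitor libraries numbered 2 (0.0399) or 3 (0.0482). Its level was lower in SUDHL6 than in SUDHL4 (-0.55, 0.000676). Its lower level in Farage than in SUDHL4 (-0.29, 0.0431) did not pass with a pseudocount of 0.25 (0.0524), with no filter (0.0521) or without any 1 of the Farage DMSO libraries, the SUDHL4 DMSO libraries numbered 1 and 2, the Farage inhibitor library numbered 2 or the SUDHL4 inhibitor library numbered 1 (adjusted p up to 0.168). DUSP22 was 0.41 ± 0.11 higher in Farage than in SUDHL6 (0.00322), with SUDHL4 between them and separated from neither (SUDHL6 minus SUDHL4 -0.20, 0.114; Farage minus SUDHL4 0.21, 0.106). These calls depended on the setting. SUDHL6 was lower than SUDHL4 with median-of-ratios scaling (-0.32, 0.0196), edgeR (-0.34, 0.0112) and DESeq2 (-0.33, 0.00837), and Farage higher than SUDHL4 when only these lines were fitted (0.00915) and with the replicate block (0.0467). Without the SUDHL6 DMSO library numbered 3, SUDHL4 was separated from both (SUDHL6 minus SUDHL4 -0.34, 0.00527; Farage minus SUDHL4 0.21, 0.0427).

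**Figure D3:**
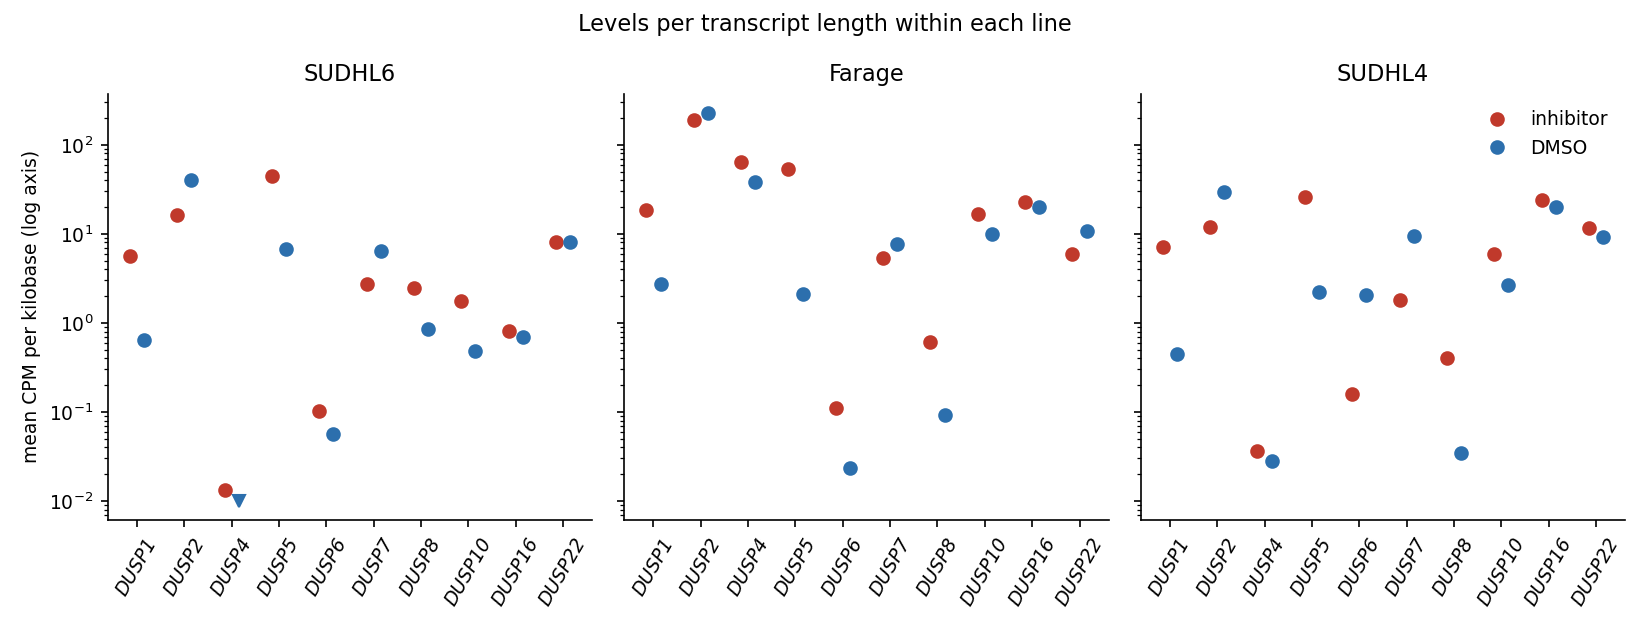
Mean CPM per kilobase (log axis) of each phosphatase in SUDHL6, Farage and SUDHL4, with inhibitor (red) left of DMSO (blue); the triangle marks DUSP4 in SUDHL6 with DMSO, where no read was recovered. Points are means of 3 libraries. DUSP2 is the highest blue point in each line.

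Across the 18 libraries some members ran together. On the log2 scale the largest correlations were those of DUSP2 with DUSP4 (r = 0.92), DUSP10 with DUSP16 (0.82), DUSP1 with DUSP5 (0.81) and DUSP4 with DUSP10 (0.81). The most opposite pairs were DUSP8 with DUSP16 (-0.75), both of the JNK and p38 class, and DUSP5 with DUSP7 (-0.74). DUSP4 was within a few reads of 0 outside Farage, and in Farage it rose (0.74) while DUSP2 did not pass (-0.27). The correlations are descriptions over 18 libraries that share 3 lines, 2 conditions and their depth. By the same measure the genes most like DUSP1 were VPS26A (r = 0.99), SIRT1 and WSB1, and those most like DUSP5 were SNW1 (0.98) and ACBD5. DUSP2 was closest to PPFIBP1 (0.99), MFSD2A and LY75, and DUSP4 to TNFRSF9 (0.9997), PRL and ZC3H12C, all of which were highest in Farage. DUSP6 was closest to RGNEF (0.98), SLA and LZTS1, which like it were highest in SUDHL4 with DMSO. DUSP7 was closest to MKI67IP (0.97), LYAR and SYNCRIP, DUSP8 to BRD2 (0.98), MOB2 and NAA60, and DUSP10 to RAB9A (0.98), UHRF1BP1L and WDFY1. DUSP16 was closest to KLHL26 (0.996), LRP6 and ARNTL, and DUSP22, with the weakest likeness, to HADHA (0.86), PPP2R5A and SELT.

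The kinases that these phosphatases act on, and the layers around them, moved in both directions in the mean of the lines, in which 30.1% of all tested genes were called higher and 53.8% lower (median -0.24). Of 12 tested MAP kinases 5 were called higher and 7 lower (median -0.54). MAPK8, which encodes JNK1, rose by 0.84 ± 0.06 (SE), while MAPK10 of the JNK family fell by 1.07 ± 0.08. That fall came from SUDHL6 (-1.81) and SUDHL4 (-1.31). In Farage MAPK10 was near 0, at 0.061 CPM after inhibitor and 0.137 CPM with DMSO. Of 7 MAP2 kinases 3 were called higher and 4 lower, including MAP2K4 (0.50) and MAP2K1 (0.44), which activate JNK and ERK, and MAP2K6 (-1.39), which activates p38. Of 20 MAP3 kinases 10 were called higher and 5 lower, among them BRAF (1.34), which rose, and ARAF (-0.95), which fell. Scaling mattered for several counts: with median-of-ratios factors 3 MAP2 kinases were higher and 2 lower.

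Transcripts that are often read as output of the ERK pathway were split in the mean of the 3 lines. Of 11, 4 were called higher and 4 lower (median 0.05), against 30.1% and 53.8% of all genes, or 7 and 3 with median-of-ratios scaling. The lines differed: in SUDHL6 5 were higher and 1 lower, against 26.8% and 41.3% of all genes. In Farage 6 were higher and 2 lower, against 25.4% and 46.5%, and in SUDHL4 2 and 6, against 24.3% and 46.2%. The 3 of smallest p in the mean rose: FOS (3.38 ± 0.23 SE), ETV5 (1.61 ± 0.09) and FOSL1 (0.73 ± 0.08). FOSL1 was called only in Farage (1.935) and was below 1 CPM on average in SUDHL6 and SUDHL4. It passed the filter only through the Farage inhibitor libraries, at a mean of 3.15 CPM, so a rise there was built into its passing. EGR1, an immediate early gene, rose in Farage (1.11) and fell in SUDHL6 (-0.84) and SUDHL4 (-1.68). DUSP6 in the same lines was 0.43 in Farage, 0.20 in SUDHL6 and -2.57 in SUDHL4. The Farage and SUDHL6 values were at levels below 1 CPM, and that of SUDHL6 did not pass (adjusted p = 0.166, limma). A difference from the SUDHL4 DMSO libraries was built into its passing the filter. Of 14 transcription factors that respond to MAP kinases 9 were called higher and 2 lower, among them ATF3 (4.30 ± 0.27), JUN (2.52 ± 0.17) and ATF2 (1.44 ± 0.07), factors that can bind cAMP response elements. Their binding to any member promoter was not tested. Of 10 kinases activated by MAP kinases 1 was higher and 5 lower, with MAPKAPK3 (-1.36), RPS6KA1 (-1.09) and RPS6KA4 (-0.90) lower, and 5 and 4 with median-of-ratios scaling.

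The remaining lists, of other phosphatases, inhibitors and scaffolds, are read against the same 30.1% and 53.8% of all genes called higher and lower. Of 7 other phosphatases of MAP kinases 4 were called higher and 1 lower (7 and 0 with median-of-ratios scaling), including PPM1D (0.90), PPP2CA (0.62) and PPM1B (0.49). Of 3 tested Sprouty and SPRED inhibitors 2 were higher, SPRED3 (0.70) and SPRED1 (0.18), and 4 of the 7 on that list did not pass the filter. SPRED3 passed it only through inhibitor libraries, so a rise was built into its passing. Its DMSO means were 0.0868 CPM in SUDHL6, 0.350 in Farage and 0.202 in SUDHL4. By line SPRED1 was called only in Farage (0.51), with -0.12 in SUDHL4 and 0.17 in SUDHL6. Of 5 scaffolds 3 were higher, SPAG9 (1.19), KSR1 (1.25) and MAPK8IP1 (0.98), and none of the 5 lower. KSR1 was near 0 in SUDHL4, at 0.172 CPM after inhibitor and 0.0562 CPM with DMSO. Of 10 tested further dual specificity phosphatases 3 were higher and 5 lower, such as DUSP14 (0.59), STYXL1 (-1.17) and DUSP19 (-0.90), or 5 and 3 with median-of-ratios scaling. Calls of opposite sign between lines, beside EGR1, were made for MAP3K12 (-0.69 in SUDHL6, 1.40 in SUDHL4), ELK3 (0.92 in SUDHL6, -0.97 in Farage), PPM1A (0.53 in SUDHL6, -0.72 in Farage) and MAPK8IP2 (0.70 in SUDHL6, -0.74 in SUDHL4). They were also made for DUSP11, MAP2K3, MAP3K13, IER2, EGR3, MAPKAPK5, PPP2R1A and CREB1, and several of these calls ended with median-of-ratios scaling. In Farage, DUSP11 (-0.22) and CREB1 (-0.22) turned to 0.015 and 0.027, MAP2K3 (-0.36) stood at -0.12 (adjusted p = 0.207) and PPP2R1A (-0.36) at -0.11 (0.174). In SUDHL4, MAPKAPK5 (-0.36) stood at -0.07 (0.408) and IER2 (-0.53) at -0.24 (0.189).

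**Figure D4:**
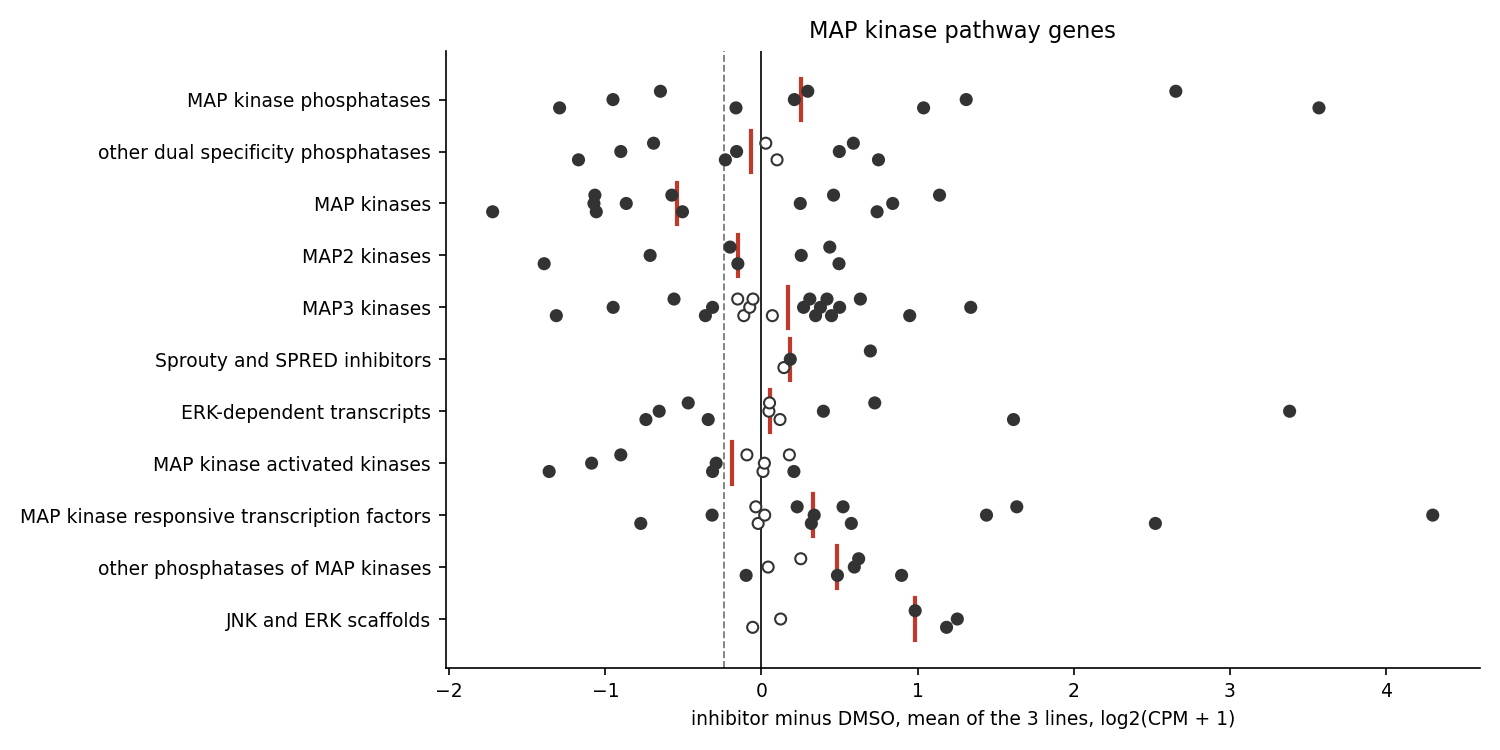
Inhibitor minus DMSO in the mean of the 3 lines, log2(CPM + 1), for the tested genes of each list. Filled points passed the adjusted p threshold of 0.05, open points did not, red bars are list medians and the dashed line is the median of all genes. The MAP kinase phosphatases run from -1.29 (DUSP7) to 3.57 (DUSP5).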

How the data were processed

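RNA-seq libraries were made from total RNA of the 3 lines with Illumina TruSeq kits, per the labels' protocols. The authors deposited counts per 1000000 (CPM) per RefSeq gene symbol. STAR and build hg19 are named in the submitters' processing notes, and Rsubread in the labels. In each of the 18 libraries, 100.0% of CPM values came out as whole reads within 0.01 reads, which gave the recovered reads. Listed genes held 74.6% to 80.7% of each library's divisor. Gene positions, transcript lengths and overlaps came from GENCODE 29.

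limma 3.58.1 (R 4.3.3) was fitted to log2(CPM + 1) with a mean-variance trend on the 6 groups (12 residual degrees of freedom), for genes with at least 1 CPM in 3 libraries. All tests are two-sided and p-values are adjusted by the Benjamini-Hochberg method. The analysis was tested on simulated data. Alternatives used edgeR 4.0.16 and DESeq2 1.42.0 on recovered reads, a pseudocount of 0.25, other filters, median-of-ratios scaling, a replicate block, only the lines compared, and each library left out. Deviations of same-numbered libraries correlated at 0.425, 0.488 and 0.632 in SUDHL6, so its numbers pair the libraries, but not in Farage (0.168, -0.128 and -0.189) or SUDHL4 (-0.054, 0.034 and -0.073). Members and lists were chosen with earlier results of these data known. Named are all members, the 3 genes of largest correlation with each (mean of at least 2 CPM), and of each list up to 3 of smallest p in the mean of the lines and up to 2 per line where calls differ in sign. Some genes that this rule names are not reported here. No 2 libraries of a group held identical values or agreed within sampling noise.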

Additional observations from a re-analysis of the deposited data

Results flagged for a closer look

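Differences between lines in the response to the inhibitor were picked out where the test of the difference itself passed (limma, adjusted over 12769 genes). For SUDHL6 minus Farage, these were DUSP2 (-0.98), DUSP4 (-0.64), DUSP5 (-1.76), DUSP7 (-0.63) and DUSP22 (0.83). For SUDHL4 minus Farage, they were DUSP2 (-1.06), DUSP4 (-0.68), DUSP6 (-3.00), DUSP7 (-1.72) and DUSP22 (1.13). For SUDHL6 minus SUDHL4, they were DUSP6 (2.77) and DUSP7 (1.08). DUSP4 was within a few reads of 0 in SUDHL6 and SUDHL4, and its differences did not pass with a pseudocount of 0.25. DUSP6 passed the filter only through the SUDHL4 DMSO libraries and DUSP4 only through Farage, so differences between lines are partly built in for both. The DUSP2 difference between SUDHL6 and Farage did not pass without the SUDHL6 DMSO library numbered 3 (-0.83) or the Farage inhibitor library numbered 3 (-0.87).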

How the results depend on the processing

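Of 100 member results (10 members in 10 comparisons), 63 kept their direction and side of the threshold under every alternative that gave a value. With the replicate block the counts of members called in SUDHL6 stayed at 4 higher and 2 lower, and beside the DUSP10 difference of SUDHL6 and Farage (0.60) it moved the call of 3 DMSO differences, DUSP2 between SUDHL6 and SUDHL4 (0.42, adjusted p = 0.0172), DUSP7 between Farage and SUDHL6 (0.26, 0.0331) and DUSP22 between Farage and SUDHL4 (0.21, 0.0467). The alternatives gave no value for the mean of the lines when only the compared lines were fitted, or for DUSP6 and DUSP8 at a mean of at least 5 CPM.

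With median-of-ratios scaling, edgeR and DESeq2, in that order, the median of the JNK and p38 class was 0.977, 1.004 and 1.018 in Farage, 1.318, 1.477 and 1.463 in SUDHL4, and 1.242, 1.479 and 1.478 in the mean of the lines. It was 1.758 (edgeR) and 1.739 (DESeq2) in SUDHL6, with 1.028 to 1.505 over single libraries left out. The median of the nuclear inducible class was 1.887, 1.996 and 2.011 in Farage. With a pseudocount of 0.25, edgeR and DESeq2 it was 1.954, 2.288 and 2.286 in SUDHL4, 1.524, 3.135 and 3.108 in SUDHL6, and 1.759, 2.775 and 2.625 in the mean. These alternatives use a smaller pseudocount, none, or remove the shift of all genes. In SUDHL6 the edgeR and DESeq2 medians also depend on DUSP4. Its change there (4.31 and 3.41) rests on 5 reads after inhibitor against 0 with DMSO. Members called lower numbered 1 in Farage with median-of-ratios scaling and edgeR, and 2 in the mean of the lines with edgeR and DESeq2. Called differences between SUDHL6 and SUDHL4 numbered 1 at a mean of at least 5 CPM, 4 with edgeR or DESeq2, and 2 to 4 over single libraries left out.

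Signs that turned from a called value were those of DUSP22 in the mean of the lines to 0.0696, 0.0805 and 0.0785 (median-of-ratios, edgeR, DESeq2), of CREB1 and DUSP11 in Farage to 0.027, 0.024 and 0.037 and to 0.015, 0.011 and 0.025, and of the DUSP4 difference of SUDHL6 and Farage to 3.32 and 2.41 (edgeR, DESeq2). The other turned signs belong to values not called. For SUDHL6 minus Farage, DUSP1 was 0.134 (pseudocount 0.25), 0.331 (edgeR) and 0.295 (DESeq2), and for SUDHL4 minus Farage DUSP8 was 0.140, 0.893 and 0.883. For SUDHL6 minus SUDHL4, DUSP8 was -0.893, -2.08 and -2.12, DUSP2 -0.0274 (median-of-ratios), -0.130 and -0.123, and DUSP4 -0.00595 (median-of-ratios). The DMSO level of DUSP5 in Farage against SUDHL4 was -0.126 (edgeR) and -0.0914 (DESeq2). Over single libraries left out, SUDHL6 minus SUDHL4 ran from -0.00196 to 0.560 for DUSP10, -0.189 to 0.400 for DUSP2 and -0.228 to 0.249 for DUSP8. SUDHL6 minus Farage ran from -0.134 to 0.0396 for DUSP16 and -0.371 to 0.106 for DUSP8, and SUDHL4 minus Farage from -0.286 to 0.0795 for DUSP8. The changes of DUSP22 in SUDHL6 and DUSP4 in SUDHL4 ran from -0.0884 to 0.157 and from -0.015 to 0.0917, and the DMSO levels of DUSP16 and DUSP5 in Farage against SUDHL4 from -0.0184 to 0.0103 and from -0.136 to 0.900. The cause was not tested for any of these. Under 10 recovered reads per library limit DUSP4 in SUDHL6 and SUDHL4, DUSP6 in SUDHL6 and in DMSO-treated Farage, and DUSP8 in DMSO-treated SUDHL4. They also limit DUSP10 in the SUDHL6 DMSO library numbered 3, with 4 reads.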
